A study of Mus musculus with 32 samples.

Results

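The SOX genes encode transcription factors that share a DNA-binding domain, the HMG box. The transcripts of 10 of them, *Sox2*, *Sox3*, *Sox21*, *Sox15*, *Sox4*, *Sox11*, *Sox9*, *Sox7*, *Sox17* and *Sox18*, were followed while mouse embryonic stem (mES) cells were driven towards primitive endoderm (PrE) by GATA6. They were picked by symbol, as 10 of the 54233 gene rows measured. Of the 10, 8 passed a filter on low counts and were tested among 15227 genes, whereas *Sox9* and *Sox18* did not pass it. Bulk polyadenylated RNA was sequenced from 32 samples, 4 replicates for each of 8 times (0, 2, 4, 8, 16, 24, 48 and 96 h). All samples came from 1 ES cell line, KH2 on a C57BL/6 background, and all of them carried the TRE:GATA6-DSREd2 transgene, which responds to doxycycline (Dox). Cells at 0 h had been kept without Dox in 2i medium, which holds LIF and inhibitors of MEK and GSK3. Cells at 2, 4 and 8 h were in serum medium with LIF and 1 µg/ml Dox. Those at 16, 24, 48 and 96 h had 12 h of Dox and then serum medium without it. Medium and Dox thus changed together after 0 h, and their parts in any difference from 0 h cannot be told apart. The study calls the replicates biological and reports, for its experiments in general, that replicates were done independently. The labels do not tie them to cultures, and p-values measure the spread between these samples.

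SOX proteins are sorted into groups by their HMG box, which binds the minor groove of DNA and bends it. SOX2, of group B1, works with OCT4 on shared DNA elements in mES cells and in the epiblast, and its loss ends pluripotency. SOX17 and SOX7, of group F, mark PrE and its derivatives, and SOX17 can pair with OCT4 on an altered element. The third group F protein, SOX18, is known from endothelium. SOX21 (B2) is a repressor that counteracts group B1 proteins, SOX4 and SOX11 (C) act in progenitors of many tissues, SOX15 (G) is present in ES cells, and SOX9 (E) directs cartilage and other lineages.

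A run of 60 bases near the start of the HMG box of each gene is shown, because the groups are based on this box. Each run is coding sequence within 1 exon (GRCm38, reference transcripts), given 5′ to 3′, with capitals at bases that differ from *Sox2*.
Sox2 (group B1, chr3:34650545-34650604, plus strand): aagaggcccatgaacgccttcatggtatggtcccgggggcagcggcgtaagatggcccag
Sox3 (group B1, chrX:60892939-60892998, minus strand): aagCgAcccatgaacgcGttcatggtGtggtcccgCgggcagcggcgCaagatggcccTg
Sox21 (group B2, chr14:118235552-118235611, minus strand): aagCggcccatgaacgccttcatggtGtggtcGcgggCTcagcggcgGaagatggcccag
Sox15 (group G, chr11:69655514-69655573, plus strand): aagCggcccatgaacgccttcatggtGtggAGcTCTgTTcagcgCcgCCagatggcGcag
Sox4 (group C, chr13:28952785-28952844, minus strand): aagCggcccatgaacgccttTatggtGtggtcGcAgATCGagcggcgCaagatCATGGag
Sox11 (group C, chr12:27342202-27342261, minus strand): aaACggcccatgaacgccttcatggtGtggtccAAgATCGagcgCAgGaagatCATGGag
Sox9 (group E, chr11:112782900-112782959, plus strand): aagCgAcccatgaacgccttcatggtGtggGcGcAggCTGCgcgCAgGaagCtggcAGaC
Sox7 (group F, chr14:63943891-63943950, plus strand): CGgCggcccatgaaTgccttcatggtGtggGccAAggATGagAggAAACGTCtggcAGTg
Sox17 (group F, chr1:4493143-4493202, minus strand): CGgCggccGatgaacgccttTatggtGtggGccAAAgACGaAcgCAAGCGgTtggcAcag
Sox18 (group F, chr2:181671225-181671284, minus strand): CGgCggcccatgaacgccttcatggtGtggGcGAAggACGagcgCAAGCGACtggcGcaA
*Sox3* differed from *Sox2* at 7 of these bases and *Sox21* at 6, whereas *Sox7* and *Sox17* each differed at 22. Over the 237 coding bases of the box, the 5 pairs within a group shared a median of 82.7% of bases (77.2 to 89.0%). The 40 pairs across groups shared 68.6% (63.3 to 88.2%), with *Sox3* and *Sox21*, both of group B, at the top of that range. No stretch of 50 bases, the read length, was shared between any 2 of the transcripts of 20 SOX genes (190 pairs), so no whole read could match 2 of them exactly.

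Expression is given as the normalized count, which is the number of reads divided by the size factor of the sample. Samples held between 3190108 and 12301732 reads on genes, and where no replicate of a time point had more than 3 reads of a gene, its level was not read as different from 0. Intervals and floors of this kind cover counting error only. A gene was called when its change passed both a false discovery rate (FDR) of 0.1 (limma, Benjamini-Hochberg adjustment over all 15227 genes) and a 4-fold limit, a log2 fold change of 2. The transgene had 0 reads in all 4 samples at 0 h, 510.3 to 739.5 normalized counts at 2 h and 44.9 to 76.5 at 16 h, after Dox had been withdrawn. At 96 h the transgene row still had 55.7 to 178. The *Gata6* row rose from at most 0.806 at 0 h to between 1887 and 2219 at 96 h. Coding reads can stem from the transgene or from the endogenous gene, and the study's methods set them apart by the untranslated regions, which only the endogenous gene transcribes. Whether these rows were split in that way is not given in the sources used here. At 2 h, however, the *Gata6* row had 11.4 to 17.2 normalized counts, so most reads of the transgene row were not in it. Replicates 1 and 2 stood apart from replicates 3 and 4 at every time point. Between 2 replicates, chi-square over its degrees of freedom (1 for sampling noise alone) was 1.20 to 5.76 within these sets and 6.06 to 16.9 between them. No label names the sets. Fold changes of each set alone are given for the time points where the sets fell on different sides of the FDR or of the 4-fold limit.

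Over the 96 h, the transcripts of the 10 SOX genes changed from mostly *Sox2* to mostly *Sox7* and *Sox17*. To compare genes, levels were taken per kilobase of exon and summed over the 10 genes. *Sox12* and *Sox13* are not in this sum, and had 39.6 to 61.8 and 60.8 to 70.3 per kilobase at 0 h. At 96 h they had 18.3 to 20.5 and 19.7 to 35.2. At 0 h, *Sox2* made up 85.2% ± 1.99 (SD, n = 4) of the sum and *Sox15* 11.1% ± 1.91, while *Sox7* and *Sox17* together stayed under 1% in each sample. At 8 h, *Sox2* had 39.5% ± 4.04, *Sox15* 30.6% ± 1.89, *Sox17* 14.1% ± 4.45 and *Sox7* 3.92% ± 0.496. *Sox7* was close to *Sox2* at 16 h (27.2% ± 2.03 and 29.6% ± 4.22). By 96 h, *Sox7* had 61.3% ± 1.5, *Sox17* 32.05% ± 1.57 and *Sox2* 3.02% ± 0.905. The sum itself went from 1098 ± 181 per kilobase at 0 h to 431 ± 10.9 at 8 h and back to 988 ± 96.6 at 96 h. In bulk RNA, fewer cells that express a gene and less RNA per cell cannot be told apart.

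**Figure D1:**
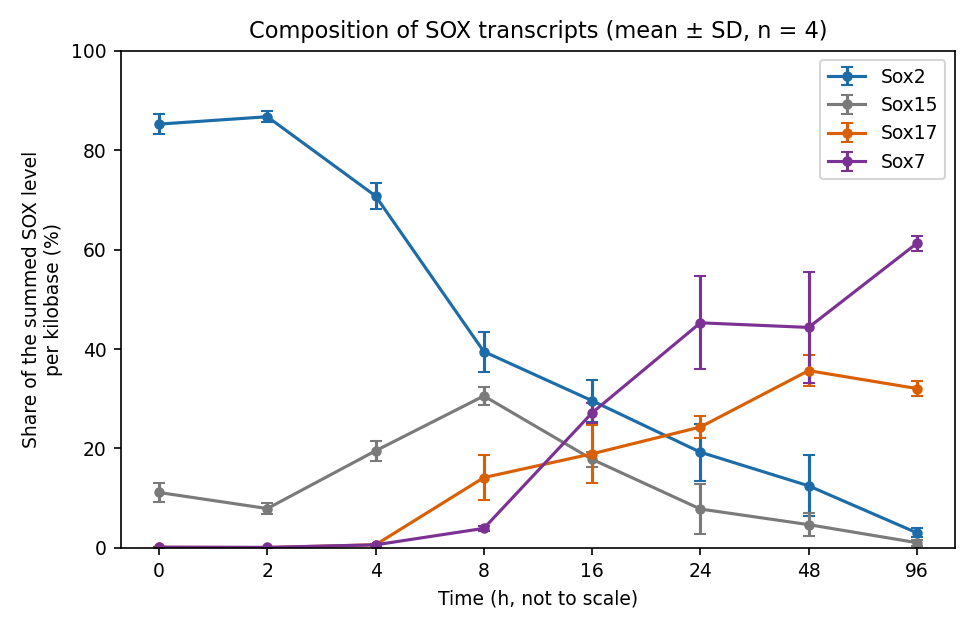
Share of the summed level per kilobase of the 10 SOX genes (%, vertical axis) against time (h, not to scale) for *Sox2*, *Sox15*, *Sox17* and *Sox7*. Points are means and bars SD of 4 replicates. *Sox2* goes from 85.2% to 3.02%, *Sox15* is highest at 8 h (30.6%), and *Sox7* ends at 61.3%.

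The crossing could be read within each sample. Per kilobase, *Sox17* was below *Sox2* in all 4 samples at 16 h (ratio 0.405 to 0.964), above it in 3 of 4 at 24 h (0.866 to 1.99) and above it in 4 of 4 at 48 h (1.82 to 4.48) and 96 h (8.56 to 18.7). At 24 h the replicate sets differed, with *Sox17* at 107 and 110 and *Sox2* at 123 and 109 in replicates 1 and 2. In replicates 3 and 4 *Sox17* was at 136 and 143 and *Sox2* at 81.9 and 71.7. *Sox7* exceeded *Sox2* in 1 of 4 samples at 16 h (0.852 to 1.07) and in 4 of 4 at 24 h (1.44 to 3.94). The order of the 2 group F genes per kilobase also changed. *Sox7* was below *Sox17* in every sample at 8 h, with a ratio of 0.303 ± 0.114 (SD, n = 4). It was above *Sox17* in every sample at 16, 24 and 96 h, and at 96 h the ratio was 1.92 ± 0.127. At 16 h the order in replicates 3 and 4 rests on the exon lengths used (3299 bases for *Sox7*, 4772 for *Sox17*). In normalized counts, *Sox7* was lower there, at 459 and 419 against 600 and 586. In replicates 1 and 2 it was higher, at 477 and 498 against 340 and 342. At 48 h the ratio was 0.871 to 1.68, and the 2 of 4 samples above 1 were replicates 3 and 4. There *Sox7* had 347 and 374 per kilobase and *Sox17* 220 and 222. In replicates 1 and 2 *Sox7* had 202 and 211 and *Sox17* 232 and 222. The sets also differed at 16 h. In replicates 1 and 2 *Sox7* had 145 and 151 per kilobase and *Sox17* 71.3 and 71.7. In replicates 3 and 4 *Sox7* had 139 and 127 and *Sox17* 126 and 123.

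*Sox2* was the highest SOX transcript at 0 h and the earliest of the 8 tested members to be called lower. The 4 samples at 0 h had 2297, 2010.3, 1664 and 1715 normalized counts, and those at 2 h had 1775, 1772, 1810.2 and 1784. The 2 time points overlapped and did not differ past the FDR (log2 fold change -0.09 ± 0.206, SE, adjusted p = 0.76). In replicates 1 and 2 alone, *Sox2* was lower at 2 h past the FDR (-0.28 ± 0.114, limma, adjusted p = 0.055), and in replicates 3 and 4 alone it was at 0.09 ± 0.125 (adjusted p = 0.60). At 4 h the samples had 1064, 1156, 922 and 959, all below 0 h (-0.90 ± 0.206, adjusted p = 0.00075), and at 8 h 387, 386, 297 and 333. The value at 8 h was the first past the 4-fold limit, at -2.45 ± 0.206 (adjusted p = 4.4e-11). The fall then slowed. Mean levels were 351 ± 43.8 (SD, n = 4) at 8 h and 315 ± 44.9 at 16 h, which did not differ past the FDR (adjusted p = 0.68), 198 ± 48.7 at 24 h and 159 ± 70.5 at 48 h. At 96 h the 4 samples had 69.0, 69.4, 62.8 and 39.7 normalized counts, 3.13% of the mean at 0 h, with a log2 fold change of -4.99 ± 0.206 (adjusted p = 2.2e-19). The change was as large in replicates 1 and 2 alone (-4.94) as in replicates 3 and 4 alone (-5.05). At 48 h the sets were farther apart, at 177 and 251 against 105 and 102. *Sox2* lies in an intron of *Sox2ot*, a long non-coding RNA on the same strand, and their exons share no base. *Sox2ot* had 6.45 to 11.5 normalized counts at 0 h and at most 1.26 at 96 h.

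*Sox3*, the other group B1 member among the 10, is best known from neural progenitors and was near the limit of what could be measured. It had 8.28, 10.2, 2.42 and 1.89 normalized counts at 0 h and 38.4, 31.7, 9.38 and 8.21 at 2 h. From 16 h on it had 0 to 7.53. The rise at 2 h passed the FDR but not the 4-fold limit (1.73 ± 0.677, SE, adjusted p = 0.043), and the samples of the 2 time points overlapped. Without 0 h replicate 2 or 2 h replicate 3 or 4 it was 2.01 to 2.07, past that limit. Within each set, however, both samples at 2 h were above both at 0 h. At 16 h replicates 1 and 2 alone were at -1.33 (adjusted p = 0.085) and replicates 3 and 4 alone at -0.93 (adjusted p = 0.21), and at 48 h they were at -2.38 (adjusted p = 0.0021) and -0.69 (adjusted p = 0.32). The difference between 96 h and 0 h went opposite ways in the sets, with -3.35 ± 0.630 in replicates 1 and 2 (0 reads in both at 96 h) and 0.86 ± 0.609 in replicates 3 and 4 (6 and 3 reads). No direction was read from the late values of *Sox3*.

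*Sox21*, which encodes the group B2 repressor, dipped and came back. Its 4 samples had 55.2, 46.2, 75.0 and 85.0 normalized counts at 0 h and 18.02, 21.9, 20.3 and 21.2 at 24 h. It had 33.9, 37.7, 32.5 and 31.99 at 48 h and 67.9, 59.95, 60.3 and 76.6 at 96 h. The samples at 24 h and 48 h were all below those at 0 h, and those at 96 h overlapped with 0 h. Relative to 0 h, *Sox21* had a log2 fold change of -1.6 ± 0.258 (SE) at 24 h (adjusted p = 4.6e-06), -0.88 ± 0.258 at 48 h (adjusted p = 0.0033) and 0.05 ± 0.258 at 96 h (adjusted p = 0.87). It rose from 24 to 48 h by 0.71 ± 0.258 (adjusted p = 0.022) and again from 48 to 96 h by 0.93 ± 0.258 (adjusted p = 0.0036), so it never passed the 4-fold limit in either direction. When libraries were scaled by total reads, the median of all tested genes at 96 h was -0.29 and *Sox21* was at -0.21. In replicates 1 and 2 alone, *Sox21* was lower at 2 h (-0.63, adjusted p = 0.048) and not past the FDR at 16 h (-0.46, adjusted p = 0.14), while replicates 3 and 4 alone were at 0.02 (adjusted p = 0.94) and -0.70 (adjusted p = 0.0044). Early on, replicates 3 and 4 were higher than replicates 1 and 2, by a ratio of 2.51 at 2 h, whereas at 24 h the ratio was 1.04. *Sox21* shares 713 exon bases with *Gm4675*, a non-coding gene on the opposite strand, and reads of the 2 genes may not have been told apart.

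*Sox15*, the only group G gene of the mouse, fell from 24 h on in both replicate sets. The samples had 128, 137, 89.5 and 71.8 normalized counts at 0 h and 125, 114, 102 and 132 at 4 h. At 8 h they had 120.2, 112, 116 and 105. These overlapped, and over all 4 replicates none of the differences from 0 h up to 16 h passed the FDR (adjusted p 0.23 to 0.81). In replicates 1 and 2 alone, however, *Sox15* was lower at 2 h (-0.96 ± 0.194, limma, adjusted p = 0.00038) and at 16 h (-0.82 ± 0.194, adjusted p = 0.0013). In replicates 3 and 4 alone it was at -0.24 ± 0.388 (adjusted p = 0.65) and 0.07 ± 0.388 (adjusted p = 0.91). At 24 h it had 48.0, 52.6, 14.2 and 17.9, below every sample at 0 h (-1.82 ± 0.386, SE, adjusted p = 0.00019). The fall was past the 4-fold limit at 48 h, with 36.7, 28.3, 23.8 and 10.3 (-2.14 ± 0.386, adjusted p = 1.4e-05), and at 96 h, with 12.7, 10.5, 8.79 and 1.89 (-3.67 ± 0.386, adjusted p = 7.6e-10). Without 48 h replicate 4 the change at 48 h was -1.79, short of the limit. Without 24 h replicate 1 or 2 the change at 24 h was past it (-2.06 and -2.11), and the sets alone were at -1.38 (replicates 1 and 2) and -2.26 (replicates 3 and 4). At 8 h, *Sox2* was at 18.3% of its mean at 0 h and *Sox15* at 106%. *Sox15* is short, with 861 bases of exon, so its level per kilobase at 0 h, 124 ± 36.0 (SD, n = 4), was next to that of *Sox2* at 934 ± 142. Of its exon bases, 31 are shared with *Mpdu1*, a gene on the opposite strand.

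*Sox4* gave a pulse. This group C gene had 5.52, 12.2, 11.3 and 9.44 normalized counts at 0 h and 45.7, 52.1, 85.6 and 75.5 at 2 h. The highest mean followed at 4 h, with 78.1, 60.6, 121 and 118. It did not differ from 2 h past the FDR (0.53 ± 0.395, SE, limma, adjusted p = 0.40). Every sample at 2 h and 4 h was above every sample at 0 h. The log2 fold change was 2.63 ± 0.395 (SE, adjusted p = 3.3e-06) at 2 h and 3.16 ± 0.395 (adjusted p = 1.4e-07) at 4 h, and *Sox4* was the only one of the 8 tested members called at either time. At 8 h it had 42.4, 34.8, 59.9 and 66.9 (2.30 ± 0.395, adjusted p = 2.1e-05), and at 16 h 6.09, 8.96, 20.0 and 23.3 (0.43 ± 0.395, adjusted p = 0.40). At 24 h it had 1.20, 8.14, 2.03 and 6.52, lower than 0 h past the FDR (-1.15 ± 0.395, adjusted p = 0.015). It was higher again at 96 h, with 18.04, 16.8, 20.1 and 18.9, above all samples at 0 h (0.92 ± 0.395, adjusted p = 0.038). The level at 4 h was 1.72 times as high in replicates 3 and 4 as in replicates 1 and 2. Both sets passed the limits at 8 h (2.51 and 2.09). At 16 h *Sox4* was higher past the FDR in replicates 3 and 4 alone (0.99 ± 0.329, adjusted p = 0.014) and at -0.14 ± 0.494 in replicates 1 and 2 alone (adjusted p = 0.83). With a pseudocount of 5 the change at 8 h was 1.92, short of the 4-fold limit. Exons of *Sox4* share 2616 bases with *Gm26735*, a non-coding gene on the opposite strand. The strand setting of the counting is not given in the sources used here, so reads of the 2 genes may not have been told apart.

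*Sox11*, of group C like *Sox4*, was split between the replicate sets. It had 200.1, 193, 50.0 and 62.3 normalized counts at 0 h and 149, 181, 50.4 and 46.0 at 2 h. It then had 192, 214, 107 and 126 at 8 h and 17.0, 31.6, 28.9 and 26.5 at 96 h. Replicates 1 and 2 were above replicates 3 and 4 at every time point but 96 h, where the sets overlapped. The log2 fold change at 96 h was -2.01 ± 0.495 (SE, adjusted p = 0.00062), at the edge of the 4-fold limit. It was -3.03 ± 0.197 in replicates 1 and 2 alone and -0.99 ± 0.219 in replicates 3 and 4 alone, past the FDR in both sets and past the 4-fold limit in replicates 1 and 2 only. Without 0 h replicate 1 it was -1.70, without 0 h replicate 2 -1.72 and without 96 h replicate 1 -1.83. At 48 h the change was -1.51 ± 0.495 (adjusted p = 0.0081). The SE over all 4 replicates includes the gap between the sets. At 8 h the change was 0.54 ± 0.495 over all (adjusted p = 0.40), 1.04 ± 0.219 in replicates 3 and 4 alone (adjusted p = 0.00034) and 0.04 ± 0.197 in replicates 1 and 2 alone (adjusted p = 0.88). At 16 h the sets were at 0.52 (adjusted p = 0.052) and 0.04 (adjusted p = 0.88), and at 24 h at -0.25 (adjusted p = 0.34) and -0.89 (adjusted p = 0.00056), in the same order.

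The group F genes *Sox7* and *Sox17* rose together and differed in timing. *Sox17*, which encodes an early PrE and endoderm factor, had 6.90, 1.36, 5.64 and 5.67 normalized counts at 0 h (2 to 7 reads a sample) and 1.04, 3.02, 3.52 and 1.64 at 2 h. These overlapped, and the lower mean at 2 h passed the FDR on 10 reads in all (-0.77 ± 0.294, SE, adjusted p = 0.039), as it did in replicates 3 and 4 alone (-0.95, adjusted p = 5.1e-05) but not in replicates 1 and 2 alone (-0.59, adjusted p = 0.20). At 4 h it had 11.9, 21.8, 26.5 and 21.7, above every sample at 0 h (1.95 ± 0.294, adjusted p = 3.4e-06). Without 0 h replicate 1, 3 or 4 or 4 h replicate 1, this change was 2.05 to 2.18 and past the 4-fold limit. At 8 h the samples had 198, 235, 362 and 363, and the step from 4 to 8 h, 3.76 ± 0.294 (adjusted p = 1.2e-10), was the largest between neighbouring time points for any of the 8 tested members. Later steps were smaller. The mean was 467 ± 145 (SD, n = 4) at 16 h and 590.1 ± 86.5 at 24 h, and it reached 1069 ± 24.3 at 48 h before ending on 1511 ± 167. At 8 and 16 h replicates 3 and 4 were 1.68 and 1.74 times as high as replicates 1 and 2. Against 0 h, *Sox17* at 96 h was at 8.13 ± 0.294 (adjusted p = 1.0e-20), with 8.32 and 7.95 in the sets. *Sox17* shares 804 exon bases with *Gm37587*, a gene on the opposite strand.

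*Sox7*, which encodes a factor of parietal endoderm and of endothelium, had 5.52, 8.15, 1.61 and 5.67 normalized counts at 0 h and 18.8, 7.27, 16.8 and 12.1 at 4 h, which overlapped. The change at 4 h passed the FDR (1.30 ± 0.348, SE, adjusted p = 0.0032). At 2 h *Sox7* was lower in replicates 3 and 4 alone (-1.07, adjusted p = 0.0013), where the samples had 1.17 and 0.821, and at -0.31 in replicates 1 and 2 alone (adjusted p = 0.35). At 8 h it had 53.4, 67.0, 48.2 and 54.7, all above 0 h (3.31 ± 0.348, adjusted p = 4.4e-09). The largest step for *Sox7* was from 8 to 16 h, where it reached 477, 498, 459 and 419 (3.04 ± 0.348, adjusted p = 2.1e-07), an interval later than the largest step of *Sox17*, although the intervals differ in length. At 24 h it had 584, 600.1, 938 and 932, and at 48 h 665, 697, 1146 and 1232, with replicates 3 and 4 higher by 1.58 and 1.75 times. At 96 h it had 1791, 1804, 2262 and 2142 (8.45 ± 0.348, adjusted p = 2.1e-19). Between 48 and 96 h *Sox7* rose by 1.14 ± 0.348 (adjusted p = 0.0075), and *Sox17* changed by 0.49 ± 0.294 (adjusted p = 0.17).

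The third group F gene, *Sox18*, had 0 to 3 reads in each of the 32 samples and 0 reads in all 4 at 96 h. The group E gene *Sox9* had 0 to 6 reads, with 0, 0, 1 and 0 at 0 h and 4, 2, 6 and 4 at 8 h, where every sample was above every sample at 0 h. Neither gene was tested, and no fold is given. Among the group F genes the rise was therefore measured for *Sox7* and *Sox17*.

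**Figure D2:**
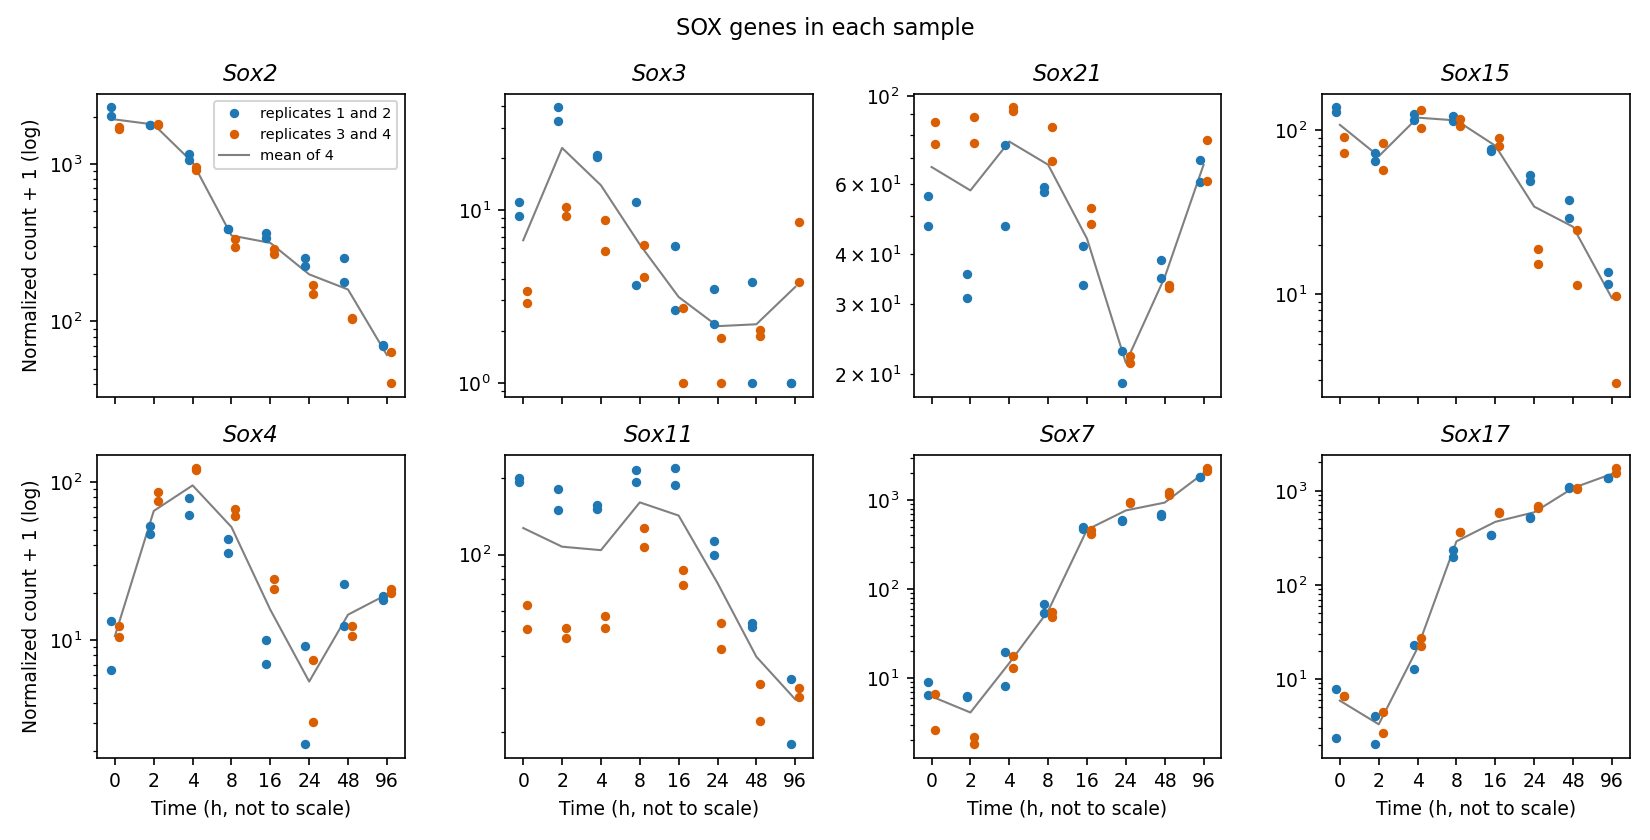
Normalized count plus 1 (log axis) of the 8 tested SOX genes in each of the 32 samples against time (h, not to scale). Blue points are replicates 1 and 2, orange points replicates 3 and 4, and the line joins the means of 4. *Sox17* and *Sox7* climb from at most 8.15 at 0 h to at least 1378 at 96 h. *Sox4* has its highest mean at 4 h (94.4), and for *Sox11* the sets lie apart until 96 h.

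Counts of called members can be set beside all tested genes. At 2 h and at 4 h, 1 of 8 members was called higher than at 0 h (*Sox4*), where 2.00% and 2.69% of all tested genes were, and 0 were called lower, against 0.348% and 0.709%. Beside these 0 calls by limma, 1 member was lower at 2 h (*Sox17*) and 1 at 4 h (*Sox2*) at an unadjusted p under 0.05, and limma-voom called 0 lower at both. At 8 h, 3 were higher (*Sox4*, *Sox7* and *Sox17*, against 3.40%) and 1 lower (*Sox2*, against 1.31%). *Sox7* and *Sox17* were the 2 called higher at 16, 24, 48 and 96 h, against 4.03%, 4.85%, 8.48% and 9.28% of all genes. *Sox2* was the 1 called lower at 16 h (2.40%) and 24 h (4.34%). It was joined by *Sox15* at 48 h (2 members, against 7.09%) and by *Sox15* and *Sox11* at 96 h (3 members, against 10.3%). All 7 comparisons share the samples at 0 h. The median log2 fold change of the 8 members went from -0.27 at 2 h and 0.65 at 4 h to -1.35 at 24 h and -0.60 at 96 h, with medians of -0.03 to 0.01 over all tested genes.

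**Figure D3:**
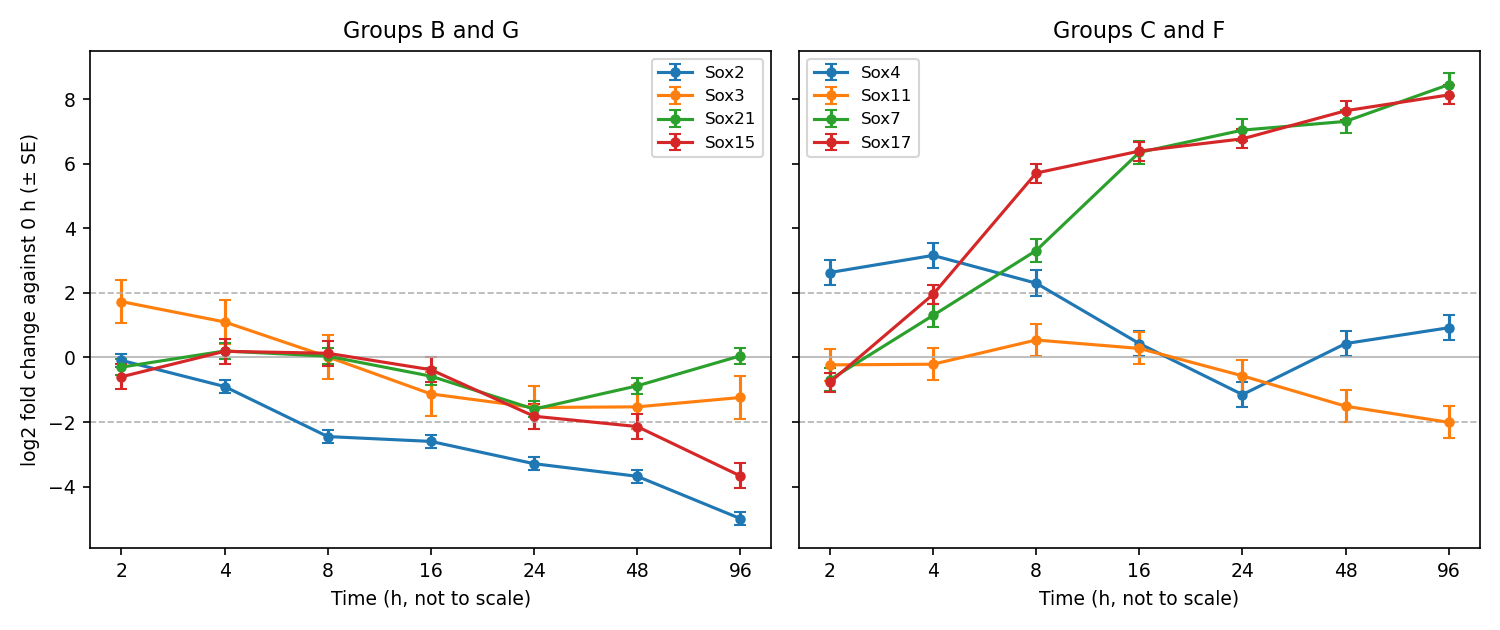
Log2 fold change against 0 h (vertical axis, bars are SE from limma, 4 replicates a time point) against time (h, not to scale) for the tested members of groups B and G (left) and C and F (right). Dashed lines mark the 4-fold limit. *Sox2* is past the lower line from 8 h on, *Sox4* is above the upper line from 2 to 8 h, and *Sox7* and *Sox17* end at 8.45 and 8.13.

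Between neighbouring time points, calls past the 4-fold limit were made in the 4 intervals up to 16 h. From 0 to 2 h this was the call of *Sox4* given above. From 2 to 4 h *Sox17* was higher (1 of 8 members, against 0.558% of all tested genes). From 4 to 8 h *Sox17* and *Sox7* were higher (2 of 8, against 0.565%), and from 8 to 16 h *Sox7* (1 of 8, against 0.499%). The step of *Sox7* was 2.01 from 4 to 8 h and 1.99 from 2 to 4 h, on either side of the limit. Without 4 h replicate 2 or 4 or 8 h replicate 2, 1 of 8 was higher from 4 to 8 h. Without 2 h replicate 1 or 2 or 4 h replicate 2 or 4, 2 of 8 were higher from 2 to 4 h. Without 8 h replicate 2 or 16 h replicate 3 or 4, *Sox4* was called lower from 8 to 16 h, a step of -1.87 with all samples. At the FDR alone, with no limit on the fold, 3 of 8 members differed between 0 and 2 h (*Sox3*, *Sox4* and *Sox17*, against 44.8% of genes in either direction). From 2 to 4 h they were *Sox2*, *Sox7* and *Sox17* (3 of 8, against 24.4%), and from 4 to 8 h the same 3 genes (17.1%). From 8 to 16 h *Sox4* fell and *Sox7* rose (2 of 8, against 20.0%). From 16 to 24 h *Sox2*, *Sox15*, *Sox4* and *Sox21* all fell (4 of 8, against 28.2%). From 24 to 48 h *Sox17*, *Sox4* and *Sox21* rose (3 of 8, against 57.6%). From 48 to 96 h *Sox7* and *Sox21* rose and *Sox2* and *Sox15* fell (4 of 8, against 54.5%).

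The 10 remaining SOX genes were read in the same way. Of these, 4 passed the filter. *Sox13* (group D) was called lower than at 0 h already at 4 h (-2.09 ± 0.173, SE, limma, adjusted p = 4.7e-11), earlier than *Sox2*. It fell from 262 to 303 normalized counts at 0 h to 20.9 to 31.9 at 16 h (-3.45 ± 0.173, adjusted p = 2.2e-16). At 96 h it stood at 84.9 to 152 (-1.34 ± 0.173, adjusted p = 4.6e-08). *Sox1*, the third group B1 gene, fell from 29.0 to 47.2 to at most 4.24 at 96 h (-3.25 ± 0.509, adjusted p = 1.4e-06). *Sox12* (group C) fell at 2 h (-1.24 ± 0.223, adjusted p = 4.5e-05), when *Sox4* of its group rose. It did not differ from 0 h past the FDR at 8, 16 and 24 h, and was lower at 96 h (-1.41 ± 0.223, adjusted p = 1.7e-06). *Sox6* (group D) reached 11.3 to 16.8 at 96 h (2.1 ± 0.621, adjusted p = 0.0034). *Sry*, the group A gene on the Y chromosome, was listed with 0 reads in every sample.

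**Figure D4:**
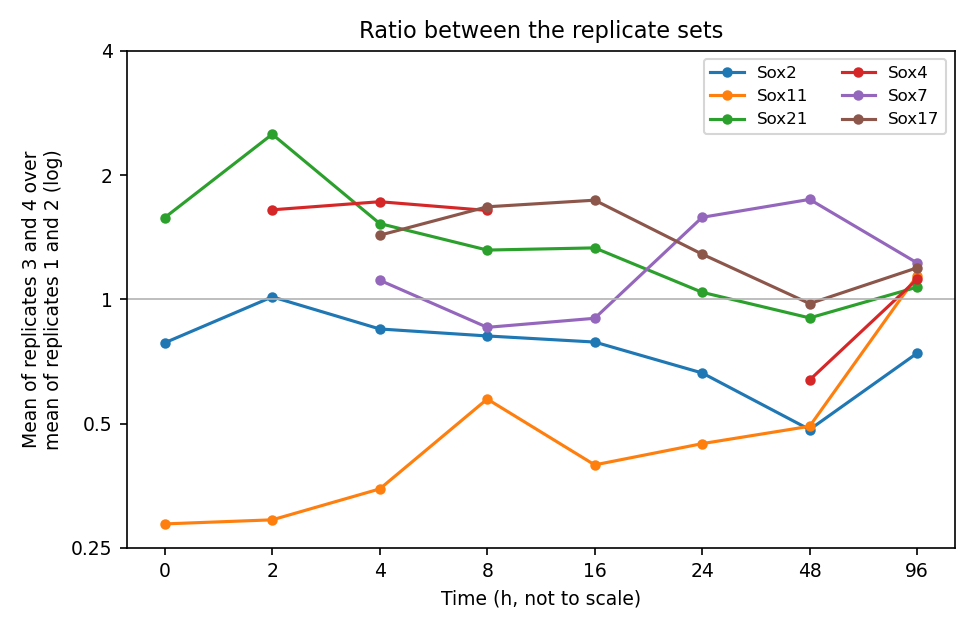
Ratio of the mean of replicates 3 and 4 to the mean of replicates 1 and 2 (log axis) against time (h, not to scale) for 6 SOX genes, at time points where both means were at least 10 normalized counts. *Sox11* lies at 0.286 at 0 h and 1.14 at 96 h, *Sox21* at 2.51 at 2 h, and *Sox7* at 1.75 at 48 h.

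Genes known to be bound by SOX2 and OCT4 were followed beside *Sox2*. Of 10 such genes, 6 were called lower and 0 higher at 96 h against 0 h, where 10.3% and 9.28% of all tested genes were, with a median log2 fold change of -2.36. The 3 with the largest falls were *Esrrb* (-7.13 ± 0.164, SE), *Nanog* (-6.62 ± 0.224) and *Fgf4* (-4.94 ± 0.287), all of them genes of the naive pluripotent state or its signals (adjusted p = 1.3e-25, 2.1e-21 and 9.8e-16). *Fbxo15* was at 0.10 ± 0.0684 (adjusted p = 0.18). *Sall4* was higher at the FDR alone (0.97 ± 0.0945, adjusted p = 1.7e-10). Of 16 endoderm genes, 15 were tested, and all 15 were called higher at 96 h, against 9.28% of all tested genes, with a median of 7.37. The largest rises were those of *Col4a1* (11.37 ± 0.187) and *Col4a2* (11.29 ± 0.243), which encode basement membrane collagen, and *Gata6* (10.61 ± 0.153), with adjusted p = 3.0e-29, 2.6e-26 and 1.3e-30. *Afp* was not tested (at most 6 reads).

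Among 10477 genes outside the SOX family with a mean of at least 50 normalized counts, those most like each member over the 32 samples were listed by Pearson's r of the log2 values. The samples share time points and replicate sets, so these values only describe shape. *Sox17* was closest to *Foxa2*, an endoderm factor (r = 0.987), and to *Gdpd5* (0.982). *Sox7* was closest to *Pdzd3* (0.982) and *Col4a2* (0.977). *Sox2* was closest to *Tcf7*, a factor of the WNT pathway, and to *Zfp42*, a marker of naive ES cells (0.975 for both). *Sox4* was closest to *F11r* and *Nfkb2* (0.909 for both), *Sox11* to *Cdkn2aipnl* (0.947) and *Snrpn* (0.927), *Sox15* to *Cpe* (0.951) and *Zfp2* (0.948), *Sox21* to *Tmem185b* (0.863) and *Flvcr2* (0.850), and *Sox3* to *Dnajb5* (0.834) and *Spire2* (0.828).

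Markers of cell types were read beside these levels. The summed level of 6 ES and epiblast markers, such as *Pou5f1* and *Nanog*, went from 27436 to 29767 at 0 h to 3362 to 3998 at 96 h. That of 7 PrE markers, which include *Sox7* and *Sox17*, went from 44.8 to 70.1 to 32297 to 37196. Since group F genes are also endothelial, 7 endothelial markers were read, whose sum went from 223 to 246 at 0 h to 1163 to 1497 at 96 h. *Cdh5* rose from a mean of 0.170 to 379 and *Kdr* from 34.7 to 275, the latter after a low of 3.44 at 16 h. *Tek* (70.2 to 235) and *Egfl7* (118 to 431) ended higher too. *Tie1* went the other way, from 10.9 at 0 h and 53.3 at 8 h to 0.793 at 96 h. *Emcn* had 0 reads in all samples and *Erg* at most 11, and 3 of the 7 were at 3 reads or fewer in every sample at 96 h. Their part in the levels of *Sox7* and *Sox17* was not tested. For the group B genes, 6 neural progenitor markers summed to 340.0 to 407 at 0 h and 343 to 442 at 96 h. Within that sum *Olig2* fell from 293 to 5.67 and *Nes* rose from 70.6 to 378, *Pax6* had at most 13 reads and *Neurog2* at most 1. Markers of trophoblast (5 genes) summed to 214 to 404 at 0 h and 189 to 489 at 96 h, with *Gata3* (3.95) and *Krt7* (3.51) called higher and *Eomes* lower at the FDR alone (log2 fold change -1.39). Those of fibroblasts (4 genes) went from 10.2 to 12.4 to 6.28 to 21.0, and those of primordial germ cells (4 genes) from 224 to 291 to 73.2 to 119.

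Promoter windows from RefSeq (GRCm38.p6) were at hand for 5 of the 10 genes, *Sox2*, *Sox4*, *Sox11*, *Sox15* and *Sox21*. The set of windows used held none for the other genes, *Sox7* and *Sox17* among them. The 250 bases before the RefSeq start were searched on both strands. The motifs were GATA (the letters AGATAA and also TGATAA, each with either A or G in last place), SOX (the letters ACAATG and also ACAAAG) and the octamer (the letters ATGCAAAT). Of 32851 promoter windows of this length, 26.5% held a GATA match, 25.2% a SOX match and 1.6% an octamer match. *Sox2* and *Sox11* were the 2 with a match, and are shown with matches in capitals, 5′ to 3′.
Sox2 (chr3:34649745-34649994, plus strand): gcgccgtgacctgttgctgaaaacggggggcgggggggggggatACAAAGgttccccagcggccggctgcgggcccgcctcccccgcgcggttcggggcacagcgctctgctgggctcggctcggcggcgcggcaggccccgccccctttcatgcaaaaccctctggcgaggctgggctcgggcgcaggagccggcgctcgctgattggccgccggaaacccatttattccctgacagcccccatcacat
Sox11 (chr12:27342719-27342968, minus strand): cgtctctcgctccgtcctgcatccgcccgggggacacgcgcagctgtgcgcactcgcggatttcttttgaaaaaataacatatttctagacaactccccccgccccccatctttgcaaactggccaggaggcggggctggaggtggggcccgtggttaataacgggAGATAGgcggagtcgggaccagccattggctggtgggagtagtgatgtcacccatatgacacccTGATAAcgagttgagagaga
The *Sox2* window, 72.0% G and C, held 1 SOX match, 206 bases before the start. The *Sox11* window held 2 GATA matches, 84 and 20 bases before it. The windows of *Sox4*, *Sox15* and *Sox21* held none of these letters. A match is a run of letters and not a measured binding site.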

How the data were processed

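The authors trimmed reads with cutadapt 2.7, checked them with FastQC 0.11.8, aligned them to GRCm38.p6 with HISAT2 2.1.0 and counted them per gene with featureCounts (Subread 1.6.4). Libraries were stranded and polyadenylated. The deposited values are log2 values after the variance stabilizing transformation of DESeq2, made by the authors, and no test written for raw counts was run on them. The transformation was inverted, which gave reads over a size factor and, per sample, whole reads for 100% of values (tolerance 0.001). Total reads on genes were 3190108 to 12301732 a sample. Gene symbols came from a gene table.

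Log2(normalized count + 1) was fitted with limma 3.58.1 (R 4.3.3, trend) over all 32 samples, for the 15227 genes that reached 10 normalized counts in 4 or more samples. Fold changes of low genes are understated by the pseudocount. Tested on simulated data of 13317 genes, the fit for 1 comparison recovered 200 of 200 genes changed by a log2 fold of 3, with 0 false calls. The changed genes all lay well above the filter, all genes were given the same dispersion, and no replicate sets were simulated. Recovery of genes with low counts, or of changes near the 4-fold limit, was therefore not tested. Levels per kilobase used merged exons of GENCODE M21. Python 3.11.15, numpy 2.4.6, pandas 2.3.3 and scipy 1.17.1 were used.

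The SOX genes and all gene lists were chosen with earlier results of these data known. Named genes are the members, the tested SOX genes, up to 3 genes each way in the target and endoderm lists, and the 2 closest genes in pattern. *Afp*, *Fbxo15*, *Sall4*, *Sry* and the markers were added after their values were seen. Alternatives covered scaling, filter, pseudocount, blocks, samples and thresholds.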

Additional observations from a re-analysis of the deposited data

Results flagged for a closer look

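Of 64 groups of 4 replicates (8 genes at 8 time points), 2 held a sample far from the other three, by a gap that, as a share of the range of the group, was above Dixon's 95% critical value. Chance flags about 1 in 20 groups. *Sox4* in 48 h replicate 1 had 21.7 normalized counts, against 9.68 to 11.4 in the other replicates. *Sox17* in 48 h replicate 1 had 1105, against 1052 to 1061, a range that is narrow beside the level. The explanation of neither was tested.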

How the results depend on the processing

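The replicate numbers share no stated batch. Samples with the same number deviated together with a mean correlation of 0.196 (-0.0428 to 0.480), and samples of 1 set with different numbers by as much (0.196), and 15 of 32 samples correlated best with their own number. With the replicate block, counts were as reported, such as 2 members higher and 3 lower at 96 h. Of the counts, 386 of 416 alternatives stayed within 1.5 times, as did 188 of 208 that left out 1 sample. A count of 0 that stayed at 0 also passed this rule, as would a move from 2 to 3, so these shares are lenient. The 21 alternatives for levels per kilobase were medians or means of 1 set, judged against the SD of the same replicates. They lie within that SD by construction, so they do not show whether the levels hold.

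Members higher than 0 h numbered 2 at 4 h with a pseudocount of 0.5 or limma-voom, 0 at 2 and 4 h with a mean of at least 50 (*Sox4* was not tested there), and 2 at 2 h and 3 at 4 h with a 2-fold limit. Members lower than 0 h numbered 1 at 48 h with a pseudocount of 5 or the deposited values, 2 at 24 h in replicates 3 and 4, and 5 at 24 h and 4 at 48 h with a 2-fold limit. Between 2 and 4 h, 2 were higher with a pseudocount of 0.5, total-read scaling, limma-voom, replicates 3 and 4 or a 2-fold limit, and 0 with a pseudocount of 5 or the deposited values. Between 4 and 8 h, 1 was higher with a pseudocount of 5, replicates 3 and 4, the deposited values or limma-voom. Between 8 and 16 h, 1 was lower in replicates 1 and 2. Between 16 and 24 h, 2 were lower in replicates 3 and 4. With a 2-fold limit, neighbouring intervals had 1 lower from 4 to 8 h and from 8 to 16 h, 3 lower from 16 to 24 h, 1 higher from 24 to 48 h, and 1 higher and 2 lower from 48 to 96 h. Apart from fewer tested genes, looser limits and fewer samples, the cause was not tested.

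Small log2 fold changes against 0 h changed sign. *Sox3* at 8 h was -0.02 (pseudocount 5), -0.01 (total reads and deposited values), -0.67 (replicates 1 and 2) and -0.11 (limma-voom), and at 96 h 0.86 (replicates 3 and 4). *Sox21* at 96 h was -0.21 (total reads), -0.02 (upper quartile) and -0.23 (replicates 3 and 4), and in replicates 3 and 4 it was 0.02 at 2 h and -0.09 at 8 h. In replicates 1 and 2, *Sox15* was -0.15 at 4 h and -0.19 at 8 h and *Sox4* -0.14 at 16 h. In replicates 3 and 4, *Sox2* was 0.09 at 2 h and *Sox15* 0.07 at 16 h.

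Leaving out 1 sample gave 1 to 2 members higher at 2 h, at 4 h, from 2 to 4 h and from 4 to 8 h, 0 to 1 lower from 8 to 16 h, 1 to 2 lower at 24 h and at 48 h, and 2 to 3 lower at 96 h. The samples that moved these counts were every 0 h replicate, every 2 h replicate, 4 h replicates 1, 2 and 4, 8 h replicate 2, 16 h replicates 3 and 4, 24 h replicates 1 and 2, 48 h replicate 4 and 96 h replicate 1. Ranges that crossed 0 were -0.59 to 0.08 (*Sox11* at 2 h), -0.57 to 0.09 (*Sox11* at 4 h), -0.07 to 0.59 (*Sox11* at 16 h), -0.04 to 0.27 (*Sox15* at 8 h), -0.11 to 0.18 (*Sox21* at 8 h), -0.10 to 0.19 (*Sox21* at 96 h) and -0.31 to 0.34 (*Sox3* at 8 h). Depth limits *Sox3*, *Sox9* and *Sox18* most.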
